A study of Arabidopsis thaliana with 12 samples.

Results

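The genes described here lost most of their signal under water deficit in 2 genotypes of Arabidopsis thaliana and mostly changed little in the third, atx1. A probe set, the group of short oligonucleotides that reports on 1 transcript, was a member if its mean log2 signal under deficit lay at least 2.5 below its watered mean in wild type and in MYO-OX, and if its change in atx1 lay above -0.5. Of 22746 probe sets that are not controls, 35 met these thresholds. BCAT4 and IAA29 were left out by name, so 33 members remained. The rule set no upper limit on the atx1 change, so "unchanged" describes most members but not all of them.

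RNA came from vegetative rosettes of plants aged 4 weeks and was measured on 12 arrays, 2 biological replicates in each of 6 groups. The atx1 groups carried a mutation of ATX1 and came from plants deprived of water to a relative water content of 65% or kept watered. The MYO-OX groups, in which a myotubularin homolog is overexpressed, and the wild-type groups, cultivar Columbia-0, were sampled in the same pair of water states. The labels give neither the background accession of atx1, nor the number of lines behind each mutant group, nor the promoter of the MYO-OX transgene. A difference in background therefore cannot be told apart from the mutation. ATX1 and the myotubularin gene had no named probe set, so neither line could be checked here by its targeted gene. RCA, the Rubisco activase gene that marks photosynthetic leaf tissue, had group means that ranked above 99.4% to 99.9% of probe sets. On watered MYO-OX replicate 1 RCA read 10.81, against 13.72 on replicate 2 and at least 12.44 on every other array. It was the single measured marker of 6 on the leaf list.

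ATX1 is a histone methyltransferase of the trithorax group, a family that keeps target genes active. Myotubularins are lipid phosphatases that act on phosphoinositides, and the MYO-OX line carries more of one. Leaves that lose water close their stomata, slow their growth and lower many genes of growth, protein synthesis and primary metabolism, while protective genes rise.

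All signals are log2 values, changes are log2 differences with the standard error (SE) of the limma fit, and group means carry the SD over n = 2 arrays. Since the deficit changes chose the members, they are a description and carry no test. In bulk tissue, fewer cells of a type and less RNA per cell cannot be told apart.

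Only 7 of the 33 members could be matched to a locus, or 21.2%, against 59.1% of all probe sets. The other 26 were not listed in the annotation table of the array and are given by probe set ID. The matched loci carry a locus tag and no symbol or product in the tables used here. The gene families named below are general knowledge of the locus, not a result. Lists of other genes around the members, such as cell wall, photosynthesis and ribosomal protein genes, were drawn up by words of the product or symbol. As the matched loci had neither, this search could hardly find a member. The 0 members found therefore say nothing about their families, and no list is described.

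Across the 33 members the change under deficit ranged from -0.50 to 1.23 in atx1, with a median of -0.21. It ranged from -4.18 to -2.54 in MYO-OX (median -3.01) and from -3.61 to -2.51 in wild type (median -3.02). The median over all probe sets was -0.01 in atx1, 0.04 in MYO-OX and 0.01 in wild type. Each member had both deficit arrays below both watered arrays in MYO-OX and in wild type, where 27.4% and 33% of all probe sets did. In atx1, 7 members had both deficit arrays below both watered arrays, against 23.6% of probe sets, and 2 had both above, against 20.9%. In limma 0 members were called lower in atx1 and 33 in each of the other genotypes, beside 1.09% of probe sets called lower in atx1, 14% in MYO-OX and 10.7% in wild type. The rule fixed these counts, and nothing is read from them.

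**Figure D1:**
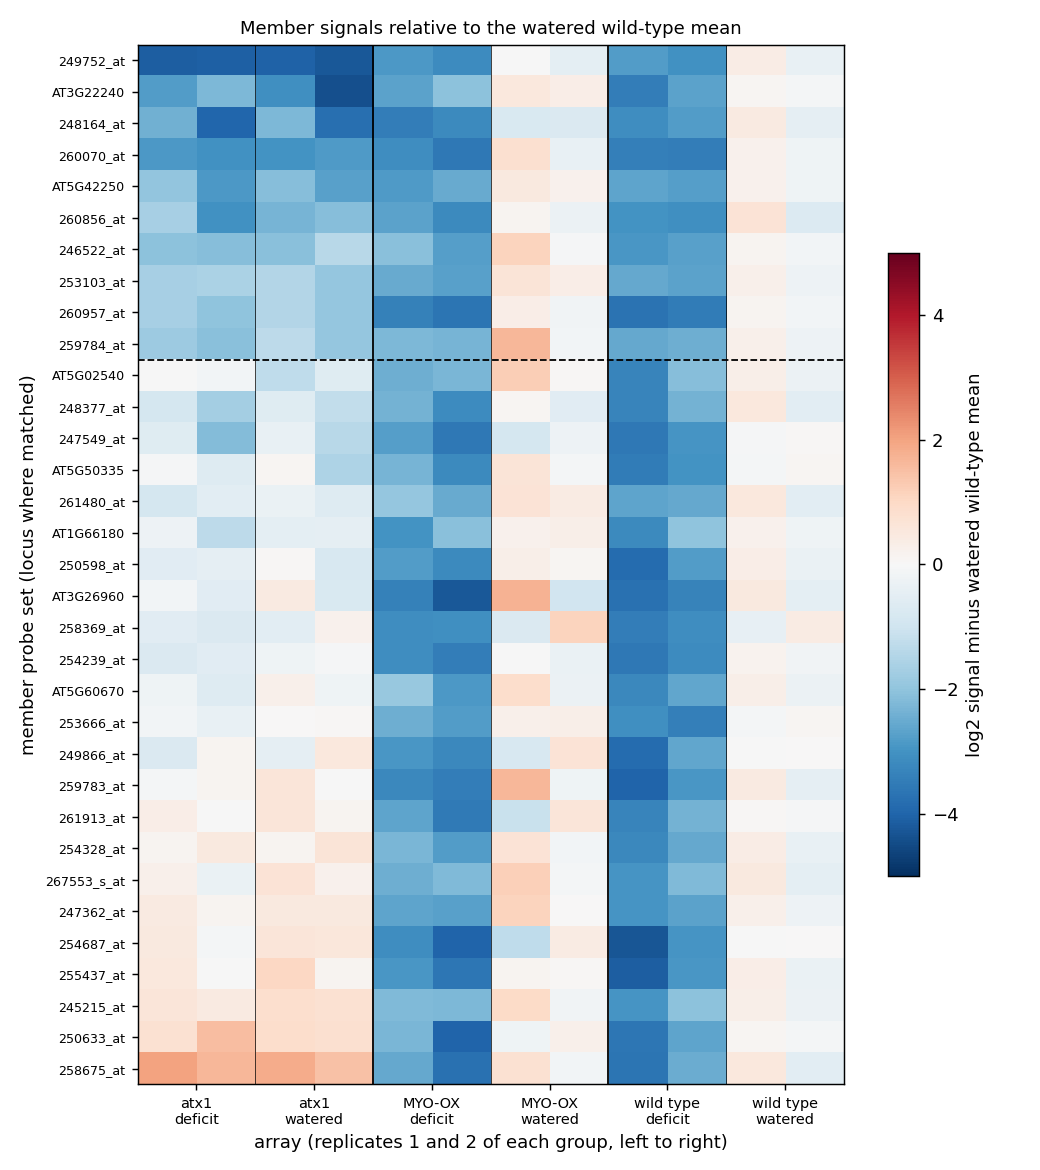
Signal of each of the 33 members (rows) on each of the 12 arrays (columns, grouped by genotype and water state), as log2 signal minus the watered wild-type mean of that member. Rows are ordered by the watered difference between atx1 and wild type, and the dashed line parts the 10 members whose watered atx1 mean lay at least 1 below wild type from the other 23.

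The members sit at 1 end of a continuous range. Of the 377 probe sets lowered by at least 2.5 in both MYO-OX and wild type, the median change in atx1 was -1.43, and 36 were lowered by at least 2.5 in atx1 too. Those above the -0.5 threshold made up 9.28%, and 7 lay above 0. No gap separated members from non-members. Just inside the atx1 threshold were 258369_at and 247549_at, both at -0.50, and just outside were AT1G29670 at -0.51 and 265894_at at -0.52. At the wild-type threshold, 259784_at and 245215_at lay just inside at -2.51 each, with AT5G01740 outside at -2.46. For MYO-OX the nearest were 248377_at at -2.54 inside and 248197_at at -2.49 outside.

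**Figure D2:**
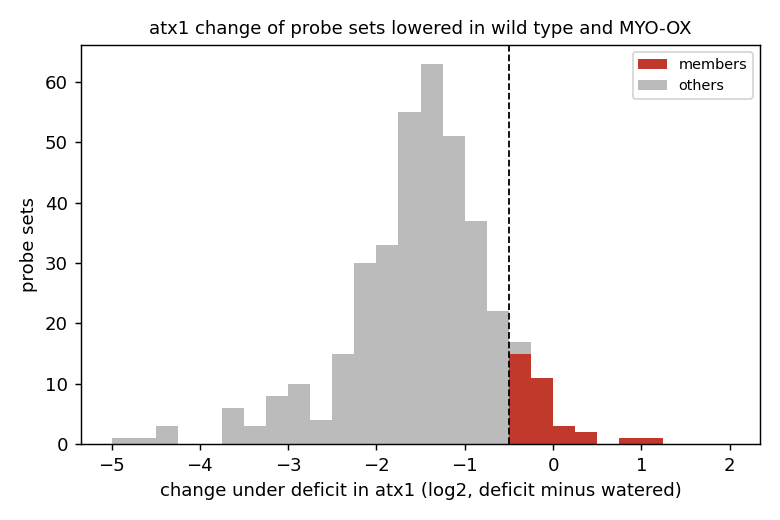
Change under deficit in atx1 (x axis, log2, deficit minus watered) of the 377 probe sets lowered in both MYO-OX and wild type, as stacked counts of probe sets (y axis), members in red and the others, BCAT4 and IAA29 included, in grey. The dashed line is the -0.5 threshold, the median of the 377 is -1.43, and the counts run through the threshold without a break.

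Membership depended on single arrays of all 3 genotypes. Without watered atx1 replicate 1, 64 probe sets met the rule, 29 of them members. Without atx1 deficit replicate 2 the number was 76, with 31 members among them. Leaving out any 1 of the other 10 arrays gave between 23 and 38. Without watered wild-type replicate 1, watered atx1 replicate 2 or atx1 deficit replicate 1, 10 members no longer met the rule. Without watered MYO-OX replicate 1 or wild-type deficit replicate 1, 8 members were lost. Replicates of the members also differed more than those of the array as a whole. The median SD of the members was 0.251 in atx1 under deficit and 0.342 in watered atx1, against 0.192 and 0.199 over all probe sets. In wild type it was 0.437 under deficit and 0.371 watered, against 0.13 and 0.156 over all probe sets.

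The atx1 deficit arrays stood apart from the rest on the control probe sets. Their 3' minus 5' signal on the GAPDH control, which grows with shorter RNA or shorter labelled copies, was 1.74 and 1.19, against 0.444 to 1.09 on the other 10 arrays. The spiked hybridization controls averaged 10.03 and 9.66 on them, against 8.17 to 9.61 elsewhere. With the hybridization controls as a covariate, the median member change in atx1 was -0.47 and 17 of the 33 stayed above -0.5. With the GAPDH difference as a covariate the median was -0.76 and 11 stayed above -0.5. In atx1, 4 members lay at or below -1 with the hybridization covariate and 11 with the GAPDH covariate. None of the 33 reached -2.5 in atx1 with either covariate, and the lowest was -2.27, with the GAPDH difference. The covariate and the atx1 deficit group overlap in the design, so their parts cannot be told apart.

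**Figure D3:**
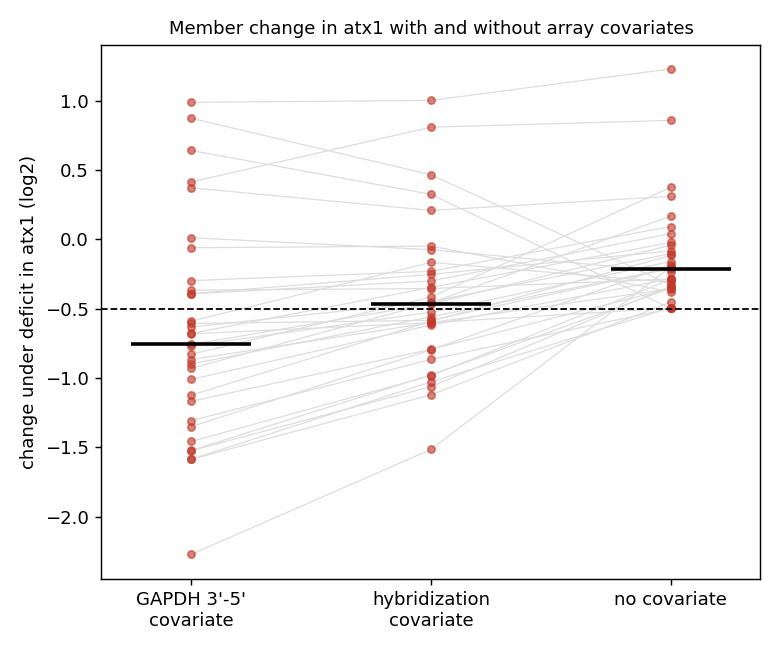
Change under deficit in atx1 (y axis, log2) of the 33 members fitted with the GAPDH 3'-5' difference, with the hybridization controls, or with no covariate; grey lines join the same member, and bars are medians at -0.76, -0.47 and -0.21. The dashed line is the -0.5 threshold, above which 11, 17 and 33 members lie.

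The same flat response in atx1 came about in different ways. In 10 members the watered atx1 mean lay at least 1 below wild type, with differences of -4.15 to -1.61. In the other 23 that difference was -0.93 to 1.65. Under deficit the difference of atx1 from wild type was 1.56 to 4.89 in those 23 (median 2.94) and -1.20 to 1.76 in the 10 (median 0.56). For all 10, both watered atx1 arrays lay below the 4 watered arrays of the other genotypes. This held for 13 of the 33 members, against 11.5% of all probe sets. The 10 were set apart by their watered difference and the rule used the same watered arrays, so these are not like shares. For all 23, both atx1 deficit arrays lay above the 4 other deficit arrays, and this held for 27 of the 33 members, against 25.8% of probe sets. Since the rule fixes the gap between the responses at 2 or more, a member that is not low in watered atx1 must be high in atx1 under deficit. The division at a watered difference of -1 was made after the values were seen. The member nearest below it was at -1.61 and the nearest above it at -0.93.

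Against the 342 other probe sets lowered in both genotypes, 30.3% of members and 18.4% of the others had watered atx1 at least 1 below wild type. Under deficit, 75.8% of members and 67% of the others had atx1 at least 1 above wild type. These shares are descriptions, since the choice of members used the same arrays.

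**Figure D4:**
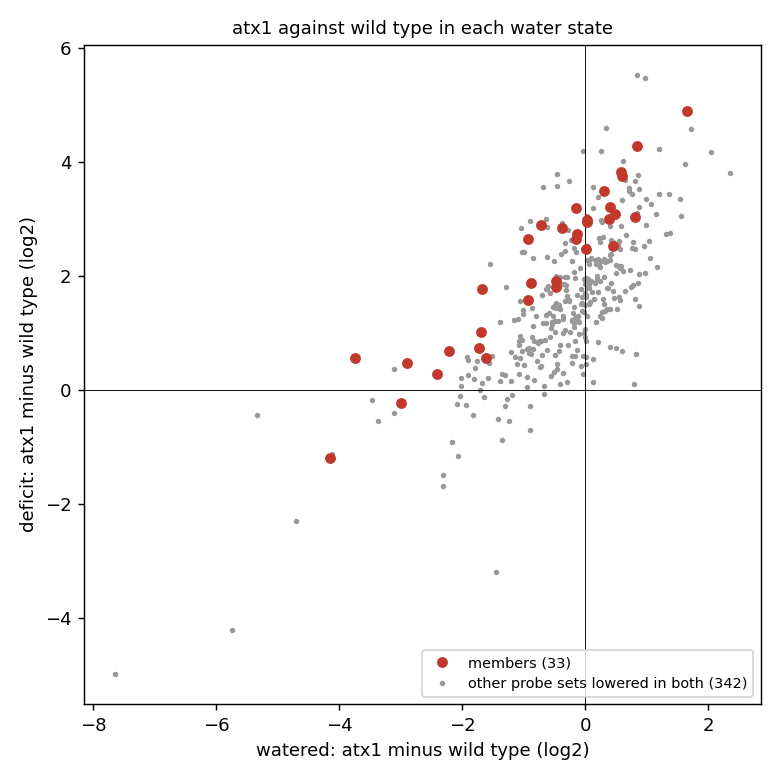
Difference of atx1 from wild type in watered plants (x axis, log2) and under deficit (y axis, log2) for the 33 members (red) and the 342 other probe sets lowered in both MYO-OX and wild type (grey). The members spread along a band from the lower left, low in watered atx1, to the upper right, high in atx1 under deficit.

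Among the 7 loci, AT3G22240 and AT5G42250 were low in watered atx1. AT3G22240 belongs to a family of small cysteine-rich proteins, and it is the clearest case of a member that was not flat in atx1. Its signal was 9.09 and 9.64 in atx1 under deficit and 8.81 and 7.47 in watered atx1. In MYO-OX it was 9.19 and 9.82 under deficit and 12.42 and 12.22 watered. Wild type gave 8.41 and 9.19 under deficit and 11.99 and 11.77 watered. All 6 deficit arrays and both watered atx1 arrays were low, and the 4 other watered arrays were high. The atx1 change was 1.23 (SE 0.456), with both deficit arrays above both watered ones, and the changes were -2.82 in MYO-OX and -3.08 in wild type. Watered atx1 averaged 8.14 ± 0.947 and watered wild type 11.88 ± 0.154, a difference of -3.74 (SE 0.456).

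AT5G42250, of the alcohol dehydrogenase family of oxidoreductases, had 5.25 and 4.35 in atx1 under deficit and 5.11 and 4.53 in watered atx1. MYO-OX plants had 4.40 and 4.72 under deficit and 7.74 and 7.46 watered. In wild type the values were 4.58 and 4.48 under deficit and 7.45 and 7.01 watered. The watered atx1 arrays lay among the deficit arrays of all genotypes, and the atx1 change was -0.02 (SE 0.328). The watered atx1 mean ranked above only 33.7% of probe sets, a level not shown to be above background, so a further fall in atx1 might not have been measurable.

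The watered level in atx1 was in the lower 50% of probe sets for 8 of these 10 members and for 0 of the other 23. This limits how large a fall the array could show in those 8, but lower signals were still read for some. Watered atx1 and wild-type deficit means were 4.76 and 3.68 for 246522_at, 4.67 and 3.78 for 259784_at, and 5.152 and 4.235 for 253103_at. They were 5.86 and 5.06 for 260856_at, 5.15 and 4.64 for 260070_at, and 4.82 and 4.53 for AT5G42250. For 248164_at and 249752_at the watered atx1 mean was the lower one.

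A root marker moved with the members that were low in watered atx1. Of the 5 genes on the root list, PYK10, for a beta-glucosidase abundant in roots, and EXPA7, a root hair expansin gene, were measured. PYK10 had 6.89 and 7.65 in atx1 under deficit and 6.18 and 7.20 in watered atx1. It had 8.09 and 7.35 in MYO-OX under deficit and 9.40 and 10.75 watered, and 8.03 and 7.67 in wild type under deficit and 10.66 and 10.48 watered. It was therefore low in watered atx1, as the 10 members were. EXPA7 stayed between 3.98 and 5.38 on all 12 arrays, with at most 34.3% of probe sets at or below its mean in any group. The log2 of the summed signal of both genes was 6.53 to 7.35 in watered atx1 and 10.5 to 10.68 in watered wild type. Most of this sum was PYK10, so it speaks for a single gene. The 2 measured guard cell genes of 4 on their list, GC1 and FAMA, summed to 8.27 to 8.80 in watered atx1 and 9.34 to 9.69 in watered wild type, and to 6.87 to 6.92 in atx1 under deficit and 6.50 to 6.62 in wild type under deficit. GC1 made up the larger part of this sum in watered plants, and FAMA did under deficit. The change of GC1 under deficit was -4.29 in atx1, -5.42 in MYO-OX and -5.39 in wild type. GC1 was therefore low under deficit in all 3 genotypes. FAMA, which encodes a transcription factor of guard cell development, changed far less than the members did. It fell by 0.74 in MYO-OX (limma adjusted p = 0.011) and by 0.97 in wild type (limma adjusted p = 0.00404), and its change in atx1 was -0.25 (limma adjusted p = 0.532). The difference of atx1 from wild type in FAMA was 0.41 under deficit (limma adjusted p = 0.134) and -0.3 in watered plants (limma adjusted p = 0.521). None of these genes was at 0, and the part of root tissue and guard cells in the member values was not tested.

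The other 5 loci were within 1 of wild type in watered atx1, at differences of -0.93 to 0.02, and high in atx1 under deficit. For AT5G02540 and AT1G66180 both watered atx1 arrays still lay below the 4 other watered arrays. AT5G02540, of the short-chain dehydrogenase family of oxidoreductases, was at 7.46 and 7.33 in atx1 under deficit and 6.20 and 6.88 in watered atx1. The MYO-OX arrays read 5.05 and 5.20 under deficit and 8.72 and 7.55 watered. The wild-type arrays read 4.15 and 5.36 under deficit and 7.78 and 7.17 watered. Both atx1 deficit arrays were above both watered atx1 arrays, with a change of 0.86 (SE 0.489), whereas the changes were -3.01 in MYO-OX and -2.72 in wild type. AT5G02540 and AT3G22240 were the 2 members with both deficit arrays above both watered arrays in atx1, against 20.9% of all probe sets. In wild type both deficit arrays lay below both watered ones, as in all 33 members. The 2 conditions together held for 1.6% of all probe sets, which is not a like share, since the rule chose the wild-type fall.

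AT3G26960, of a family of secreted proteins related to pollen allergens and extensins, had the deepest falls of the 7 loci. It stood at 8.80 and 8.38 in atx1 under deficit and 9.40 and 8.18 in watered atx1. For MYO-OX it stood at 5.58 and 4.72 under deficit and 10.67 and 7.98 watered. For wild type it stood at 5.21 and 5.61 under deficit and 9.42 and 8.47 watered. The watered MYO-OX replicates lay far apart (SD 1.9), and the SE of 0.811 was the highest among the members. The change was -0.20 in atx1, -4.18 in MYO-OX and -3.54 in wild type, and atx1 exceeded wild type by 3.18 under deficit (9.08-fold). The small atx1 change moved with the array covariates, to -1.51 with the hybridization controls and -2.27 with the GAPDH difference.

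AT5G50335 had 7.59 and 6.99 in atx1 under deficit and 7.73 and 6.10 in watered atx1. Its MYO-OX values were 5.33 and 4.45 under deficit and 8.27 and 7.55 watered. Its wild-type values were 4.16 and 4.66 under deficit and 7.54 and 7.75 watered. The deficit atx1 arrays lay between the watered atx1 arrays, so the change of 0.37 (SE 0.541) was within the replicate spread. The wild-type deficit mean ranked above 28.4% of probe sets, a level not shown to be above background.

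AT1G66180, of the aspartyl protease family, measured 9.03 and 8.01 in atx1 under deficit and 8.82 and 8.84 in watered atx1. It measured 6.33 and 7.19 in MYO-OX under deficit and 9.51 and 9.57 watered. The wild-type arrays gave 6.13 and 7.29 under deficit and 9.53 and 9.07 watered. The atx1 change was -0.31 (SE 0.466), with 1 deficit atx1 array above and 1 below both watered ones.

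AT5G60670, for a protein of the large subunit of the cytosolic ribosome, was bright on every array. Its signal was 11.06 and 10.63 in atx1 under deficit and 11.53 and 11.07 in watered atx1. MYO-OX arrays gave 9.40 and 8.43 under deficit and 12.18 and 10.98 watered. Wild-type arrays gave 8.07 and 8.68 under deficit and 11.56 and 11.00 watered. Both atx1 deficit arrays were just below both watered atx1 arrays, and the atx1 change of -0.45 (SE 0.474) was the nearest to the threshold among the 7. Its wild-type deficit mean still ranked above 79.2% of probe sets, far from the dim end of the array. Its atx1 change was -1.12 with the hybridization covariate and -1.59 with the GAPDH covariate.

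**Figure D5:**
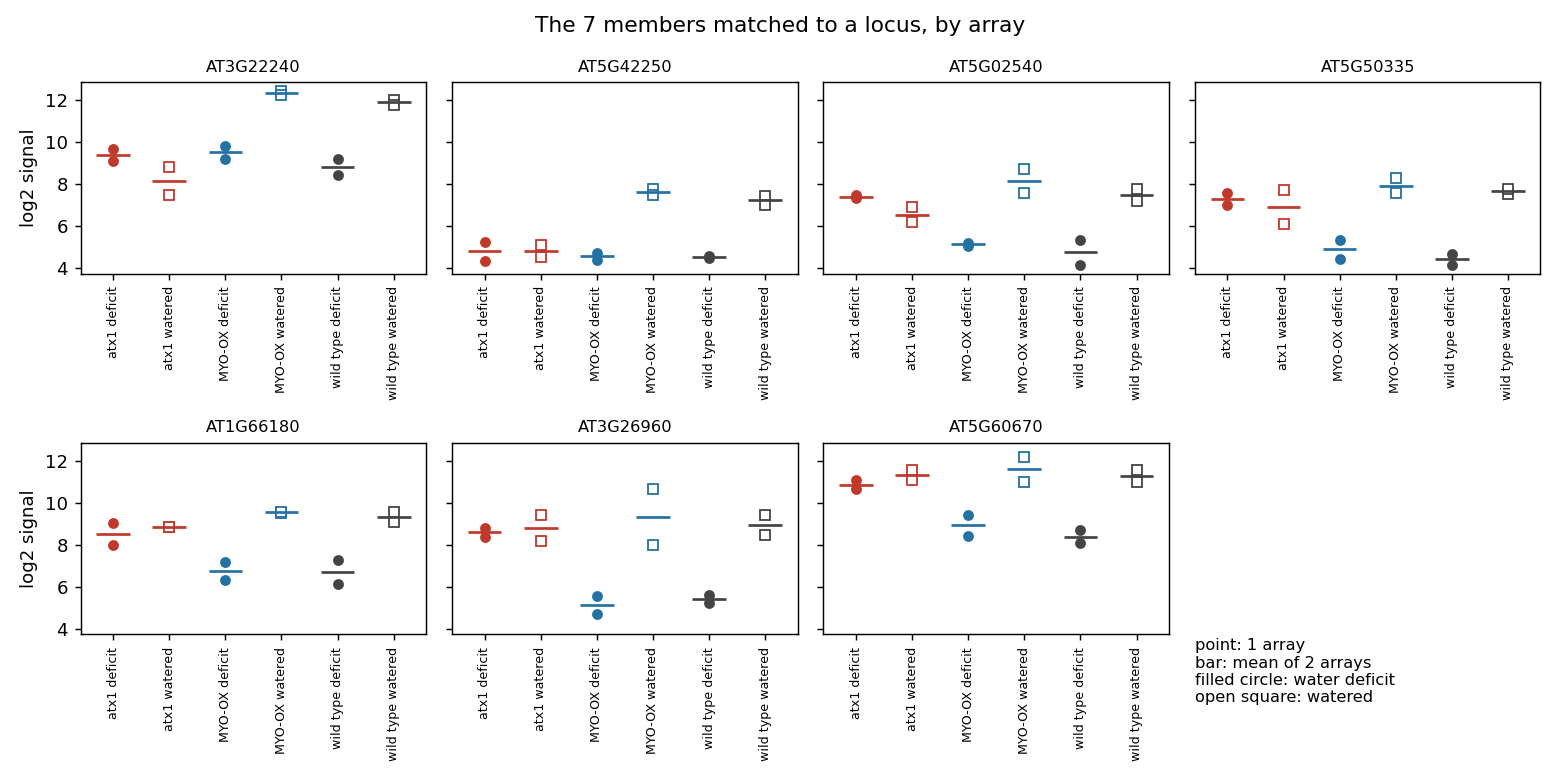
Log2 signal (y axis, shared scale) of the 7 members matched to a locus, by genotype and water state; each point is 1 array and each bar the mean of 2. AT3G22240 and AT5G42250 are low in watered atx1, and the other 5 loci are high in atx1 under deficit, where their atx1 arrays lie above all 4 other deficit arrays.

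Of the members known only by probe set ID, 258675_at and 249752_at marked the ends of the range. 258675_at was at 12.45 and 12.09 in atx1 under deficit and 12.29 and 11.92 in watered atx1. It was at 7.90 and 6.71 in MYO-OX under deficit and 11.22 and 10.30 watered. In wild type it was at 6.80 and 7.95 under deficit and 10.97 and 9.93 watered. Here atx1 was the highest genotype in both water states, by 4.89 over wild type under deficit (29.7-fold) and by 1.65 in watered plants.

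For 249752_at the atx1 arrays read 4.31 and 4.36 under deficit and 4.39 and 4.21 watered. MYO-OX arrays read 5.56 and 5.30 under deficit and 8.44 and 7.96 watered, and wild-type arrays 5.65 and 5.42 under deficit and 8.82 and 8.08 watered. All 4 atx1 arrays lay below every array of the other genotypes, including their deficit arrays. It was the single member with both atx1 deficit arrays below the 4 other deficit arrays, against 21.2% of probe sets. Its watered atx1 mean ranked above only 24.8% of probe sets.

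The average of the deficit and watered means of a genotype does not share its error with the deficit change, so it could be tested. The comparison asks whether a member differed between genotypes over both water states. In limma with Benjamini-Hochberg adjustment over all 22746 probe sets, 20 of the 33 members passed, with 15 of them higher in atx1 and 5 lower, beside 13.5% of all probe sets in either direction, 8.18% higher and 5.3% lower. After median centring of the arrays the members split 13 to 5 and all probe sets 1089 higher to 1655 lower, against 1860 higher to 1206 lower as deposited. A member with equal watered levels has an average at least 1 higher in atx1 because of the rule, and the 15 higher calls are therefore not a separate finding. The 5 lower calls run against that shift, but they are not free of the rule. A probe set already dim in watered atx1 may have less room to fall, and so may meet the rule more easily. In watered atx1, 249752_at ranked above 24.8% of probe sets, AT5G42250 above 33.7%, 260070_at above 38% and 248164_at above 40.9%. AT3G22240 ranked above 76.7%.

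The 5 members lower in atx1 were 249752_at at -2.67 (SE 0.191, limma adjusted p = 0.000136), AT3G22240 at -1.59 (SE 0.322, limma adjusted p = 0.0156), 260070_at at -1.22 (SE 0.255, limma adjusted p = 0.0178), AT5G42250 at -1.07 (SE 0.232, limma adjusted p = 0.0204) and 248164_at at -1.61 (SE 0.419, limma adjusted p = 0.0387). All 5 were among the 10 members low in watered atx1. The arrays of 260070_at read 5.20 and 5.01 in atx1 under deficit and 5.08 and 5.22 in watered atx1. They read 4.96 and 4.50 in MYO-OX under deficit and 8.88 and 7.68 watered, and 4.65 and 4.62 in wild type under deficit and 8.28 and 7.84 watered. All 4 atx1 arrays of 260070_at lay above every other deficit array and below every other watered array. For 248164_at the atx1 replicates lay far apart, at 5.98 and 4.45 under deficit and 6.16 and 4.65 watered. Its other arrays read 4.94 and 5.20 in MYO-OX under deficit and 7.64 and 7.67 watered, and 5.29 and 5.59 in wild type under deficit and 8.85 and 7.96 watered.

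The call for 249752_at was made under all 21 alternatives, with limma adjusted p between 3.73e-05 and 0.00154. The other 4 lower calls each ended without 1 array or another. AT3G22240 (0.00784 to 0.0577 over its alternatives) failed to pass when watered wild-type replicate 1 (limma adjusted p = 0.0526), wild-type deficit replicate 2 (0.0559) or atx1 deficit replicate 1 (0.0577) was left out. AT5G42250 (0.00847 to 0.0796) failed without wild-type deficit replicate 1 (0.0796) or 2 (0.058), watered wild-type replicate 1 (0.0693) or watered atx1 replicate 2 (0.0676). 260070_at (0.00251 to 0.0695) failed without wild-type deficit replicate 1 or 2, watered wild-type replicate 1 or watered atx1 replicate 1. 248164_at (0.0147 to 0.117) failed without any 1 of 8 arrays, which were both replicates of the wild-type groups and of MYO-OX under deficit, atx1 deficit replicate 2 and watered atx1 replicate 2, and also when the fit held only the atx1 and wild-type arrays (0.0626). The count of lower calls was 3 without watered atx1 replicate 2, 2 without wild-type deficit replicate 1, and 1 without wild-type deficit replicate 2 or watered wild-type replicate 1.

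Among the 10 called members with the largest averaged differences were 9 of the higher ones, all known only by ID. Besides 258675_at at 3.27 (limma adjusted p = 0.00179), they lay between 1.69 and 2.56, with limma adjusted p between 0.00268 and 0.027. 250633_at had 10.43 and 11.20 in atx1 under deficit and 10.54 and 10.47 in watered atx1, against 7.39 and 5.65 in MYO-OX under deficit, 9.45 and 9.91 in watered MYO-OX, 6.04 and 7.03 in wild type under deficit and 9.77 and 9.56 in watered wild type. 254687_at, bright throughout, had 12.15 and 11.57 in atx1 under deficit and 12.25 and 12.22 in watered atx1, against 8.56 and 7.64 in MYO-OX under deficit, 10.37 and 12.06 in watered MYO-OX, 7.37 and 8.73 in wild type under deficit and 11.63 and 11.69 in watered wild type. For 250633_at all 4 atx1 arrays lay above every array of the other genotypes, and for 254687_at the atx1 deficit arrays reached into the range of the other watered arrays.

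255437_at read 8.48 and 7.94 in atx1 under deficit and 9.02 and 8.11 in watered atx1, against 5.05 and 4.36 in MYO-OX under deficit, 8.12 and 8.03 in watered MYO-OX, 3.86 and 5.05 in wild type under deficit and 8.31 and 7.64 in watered wild type. 245215_at read 9.36 and 9.20 in atx1 under deficit and 9.61 and 9.53 in watered atx1, against 6.57 and 6.51 in MYO-OX under deficit, 9.72 and 8.57 in watered MYO-OX, 5.80 and 6.71 in wild type under deficit and 9.07 and 8.45 in watered wild type. 259783_at read 7.93 and 8.16 in atx1 under deficit and 8.65 and 8.02 in watered atx1, against 4.80 and 4.57 in MYO-OX under deficit, 9.69 and 7.80 in watered MYO-OX, 4.01 and 5.12 in wild type under deficit and 8.47 and 7.59 in watered wild type. In 255437_at and 259783_at the watered arrays of atx1 overlapped those of both other genotypes. In 245215_at they overlapped those of MYO-OX and lay above both of wild type. Under deficit both atx1 arrays lay above all 4 others in each of the 3.

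254328_at gave 10.55 and 10.91 in atx1 under deficit and 10.57 and 11.06 in watered atx1, against 8.14 and 7.62 in MYO-OX under deficit, 11.08 and 10.28 in watered MYO-OX, 7.21 and 7.84 in wild type under deficit and 10.79 and 10.04 in watered wild type. 247362_at gave 7.54 and 7.24 in atx1 under deficit and 7.59 and 7.61 in watered atx1, against 4.47 and 4.40 in MYO-OX under deficit, 8.21 and 7.14 in watered MYO-OX, 4.18 and 4.45 in wild type under deficit and 7.38 and 6.85 in watered wild type. 261913_at gave 9.27 and 8.94 in atx1 under deficit and 9.58 and 9.10 in watered atx1, against 6.31 and 5.40 in MYO-OX under deficit, 7.84 and 9.55 in watered MYO-OX, 5.64 and 6.58 in wild type under deficit and 9.03 and 8.88 in watered wild type. In all 8 of these members the gap between atx1 and the other deficit arrays was wider than the spread of replicates, and this gap is what the rule selects.

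The total of 20 was 12 without atx1 deficit replicate 1, 13 without watered atx1 replicate 1, 10 without wild-type deficit replicate 1 and 13 without watered wild-type replicate 2. Among the loci, AT5G60670 was higher in atx1 by 1.24 (SE 0.335, limma adjusted p = 0.0437), a call that ended without any 1 of the 8 atx1 and wild-type arrays (0.0653 to 0.158). It also ended under median centring (limma adjusted p = 0.087) and repeated quantile normalization (0.0567), and the difference was 0.68 with the hybridization covariate (0.179) and 0.57 with the GAPDH covariate (0.18). The other 4 loci did not pass. Their differences were 1.51 for AT3G26960 (limma adjusted p = 0.127), 1.08 for AT5G50335 (limma adjusted p = 0.106), 0.85 for AT5G02540 (limma adjusted p = 0.151) and 0.67 for AT1G66180 (limma adjusted p = 0.239).

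MYO-OX was also set against wild type. Averaged over both water states, the members differed by -0.56 to 0.57 between MYO-OX and wild type, with a median of 0.20 beside 0.02 over all probe sets, and 25 of the 33 lay above 0. limma called 0 members and 0% of all probe sets, with 1 member and 370 probe sets at an unadjusted p under 0.05. The 95% confidence intervals of the members ran at the widest from -1.52 to 1.41, and for 32 of the 33 they lay within 1.5 of 0. The deficit change differed by -0.64 to 0.66 between MYO-OX and wild type, with a median of 0.02. Both changes chose the members, since the rule held each at -2.5 or below, and this choice narrows their difference. It is therefore a description, and the 0 members that limma called for it, where it called 0% of all probe sets, say nothing about how alike the responses were.

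Genes next to the matched loci were looked at for the same fall under deficit. The nearest protein-coding gene on each side of the 7 loci was taken from the TAIR10.1 annotation, and 7 of these 14 had a named probe set. Their changes under deficit were -0.87 to 0.88 in atx1, -1.12 to 1.09 in MYO-OX and -0.53 to 1.20 in wild type, and 0 of them fell by 2.5 in MYO-OX or wild type. AT5G02550, next to AT5G02540, rose in MYO-OX by 1.08 (limma adjusted p = 0.0471) and in wild type by 1.20 (limma adjusted p = 0.0379). AT5G02530, on its other side, fell by 0.87 in atx1 (limma adjusted p = 0.0458) and by 1.12 in MYO-OX (limma adjusted p = 0.0041). The genes next to AT3G22240 and AT3G26960 that had a probe set, AT3G22250 and AT3G26950, changed by at most 0.33 in any genotype and were not called.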

How the data were processed

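RNA of each sample was measured on 1 Affymetrix array as biotin-labelled cRNA. The log2 signals were deposited by the authors, who made them by robust multi-array averaging (RMA), per the submitters' processing notes. No version was stated there. The table held 22810 probe sets, of which 64 controls were set apart. Genes came from the annotation table of the array, updated through the TAIR10.1 gene table, with 13436 probe sets matched to 1 locus.

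A limma model (3.58.1, R 4.3.3) that gave each group its mean took in all 12 arrays (6 residual and 2.34 prior degrees of freedom). Two-sided p values were adjusted within each comparison (Benjamini-Hochberg), called under 0.05, and the procedure was tested on simulated data. The arrays carry no counts, and their number limits the precision.

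Members, lists and alternatives were chosen with earlier results of these data known. Named were members with a locus, the 10 called members with the largest averaged difference between atx1 and wild type, and, after their values were seen, the other members called lower and those at the thresholds. The planned count of promoter motifs was not run. Alternatives were a replicate block, 2 scalings, a filter on dim probe sets, another variance prior, fewer arrays, 2 covariates and each array left out. No sequences were used.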

Additional observations from a re-analysis of the deposited data

Results flagged for a closer look

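AT3G22240 and AT5G02540 rose on both deficit arrays over both watered arrays in atx1 and fell on both in wild type. The response in atx1 exceeded that in wild type by 4.31 for AT3G22240 and by 3.57 for AT5G02540 (log2). The difference was not tested, because the deficit changes chose these genes.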

How the results depend on the processing

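With the GAPDH covariate, 20 probe sets met the rule, only 11 of them members, against 33 without it. The median member change in atx1 was -0.76 with it, against -0.21 without. The median member difference of atx1 from wild type under deficit was 1.43, against 2.64. With the hybridization covariate that difference was 1.88, and 23 probe sets met the rule, 17 of them members. The cause was not tested. Without 1 array, the number meeting the rule was 23 to 76, the members called between atx1 and wild type 10 to 22, those higher 8 to 17 and those lower 1 to 5. The replicate block gave 21 calls, 16 higher and 5 lower. In their deviations from the group means, same-numbered replicates correlated at 0.514 to 0.561 among the 3 watered groups and at 0.499 between the 2 atx1 groups. Wild type under deficit went against atx1 and MYO-OX under deficit (-0.266 and -0.286). Replicate 1 had the higher hybridization controls in all 6 groups. With 2 replicates and no shared batch in the labels, the numbers were not taken as pairs. A crossed replicate block, added after the data were seen for the wild-type deficit numbers, gave 23 calls. Median centring moved the median difference over all probe sets from 0.02 to -0.15 and gave 13 higher and 5 lower members, against 15 and 5, and over all probe sets 1089 higher and 1655 lower, against 1860 and 1206. Repeated quantile normalization gave 1547 and 1514. Median centring kept 23 of the 33 members within the rule. Of the 20 members called, 9 were called in every alternative that tested them, 8 of them higher and 1 lower. Like the other higher calls, these 8 follow from the rule and are not a separate finding. The replicate block changed no call on the 7 loci or on the 3 other members called lower, and 33 probe sets met the rule with it. Restricting the fit to the compared groups, leaving out 1 watered MYO-OX array or crossing the block brought AT3G26960 past the threshold, the restricted fit ended the call of 248164_at (4 lower calls), and leaving out watered atx1 replicate 2 or crossing the block AT5G50335. Dim signals limit the low members, and the 2 arrays in each group limit all of them.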
